A study of Mus musculus with 3 samples.

Results

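Krt5, Krt15 and Trp63 are 3 of the 31053 genes measured in a single-cell study of mouse bladder urothelium, and they were chosen by name as genes of the basal layer. They were followed in cells defined as urothelial by their RNA, without use of the 3 genes themselves: at least 10000 UMIs (unique molecular identifiers, each counting 1 captured RNA molecule), at most 20% of UMIs from mitochondrial genes, and at least 0.2% from the uroplakin genes Upk1a, Upk1b, Upk2 and Upk3a. This rule kept 12728 of 25784 barcodes, namely 2887 of 8085 from wild-type mice, 4670 of 8293 from Lpar6 knockout mice and 5171 of 9406 from Cab39l knockout mice.

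The study asked about the roles of Lpar6 (a lysophosphatidic acid receptor gene) and Cab39l (whose protein holds the kinase LKB1 in its active complex) in the basal to luminal differentiation of the urothelium. Urothelial cells were released by trypsin injected into the bladder, and the suspensions of 15 mice per genotype were pooled into 1 10x Genomics library each. The labels give neither strain, age nor sex of the mice, nor the part of each gene that was deleted, nor whether the deletions were limited to the urothelium. With 1 library per genotype, no difference between genotypes could be tested; the 95% intervals given here are exact Poisson or binomial intervals that cover counting error only, and genotype cannot be told apart from pool or library.

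The urothelium is a layered epithelium in which basal cells lie on the basement membrane, intermediate cells above them and umbrella cells facing the lumen. Trp63 encodes p63, a transcription factor of basal and intermediate cells that is needed to build stratified epithelia, and whose long and short amino-terminal forms cannot be separated by tags near the 3′ end. Krt5 encodes a type II keratin and Krt15 a type I keratin; keratin filaments are built from pairs of the 2 types, and in stratified epithelia both proteins mark the basal layer.

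In mm10 with the GENCODE vM21 annotation, Trp63 (ENSMUSG00000022510) lies on the plus strand of chromosome 16, from 25683763 to 25892102, and has 8 protein-coding transcripts, the longest with 14 exons. Krt5 (ENSMUSG00000061527) lies on the minus strand of chromosome 15, from 101707070 to 101712898, in 9 exons within the type II keratin cluster, next to Krt6a. Krt15 (ENSMUSG00000054146) lies on the minus strand of chromosome 11, from 100131758 to 100135928, in 8 exons between the type I keratin genes Krt13 and Krt19.

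The urothelial cells had medians of 23652 UMIs in the wild type, 27339.5 in Lpar6 knockout cells and 30904 in Cab39l knockout cells, and summed to 76259491, 127349128 and 157714773 UMIs. The wild-type library stood apart in quality: the median mitochondrial share was 8.68% there against 6.25% and 6.12%, and 603 of its barcodes failed the mitochondrial limit against 93 and 212. Lpar6 was at 13.6 CPM (UMIs per 1000000 UMIs of the same cells) in wild-type cells, at 12.1 CPM in Cab39l knockout cells and at 0 UMIs in every barcode of the Lpar6 knockout library. Cab39l was at 112 CPM in the wild type, 94.0 CPM in Lpar6 knockout cells and 31.6 CPM in Cab39l knockout cells. The libraries shared 16 to 19 barcode sequences pairwise, of which 2 to 8 were urothelial cells in both. Among the cells kept, summed erythroid markers were at 286, 124 and 50.3 CPM in the wild type, Lpar6 knockout and Cab39l knockout, and prostate or seminal vesicle markers at 11.4, 2.91 and 313 CPM.

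Of genes that mark basal cells, some were nearly absent here and others were present. Of 19 other basal-layer genes listed, 15 had at least 50 UMIs over the wild type and Lpar6 knockout together. Krt14 and Krt17, keratins of basal cells in many stratified epithelia, had 1 UMI and 0 UMIs in all 12728 cells. Col17a1, a hemidesmosome collagen, reached no more than 0.525 CPM in any library, whereas Itga6, an integrin of the basal surface, was at 51.7, 29.5 and 30.4 CPM and Cd44 at 37.3, 15.2 and 19.3 CPM in the wild type, Lpar6 knockout and Cab39l knockout. These genes were named after their values were seen.

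Krt15 was the member that differed most between the libraries: it was about 5-fold lower in Lpar6 knockout cells than in the other libraries, and the other members differed by less than 2-fold in every pair of libraries. Krt5 was lower in the Lpar6 knockout and near the wild-type level in the Cab39l knockout. Trp63 was lower in both knockouts, by nearly the same amount.

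Trp63 was at 155 CPM (153 to 158) in wild-type cells, 94.5 CPM (92.9 to 96.2) in Lpar6 knockout cells and 96.8 CPM (95.3 to 98.4) in Cab39l knockout cells. Both knockouts were below the wild type, by log2 -0.71 (-0.75 to -0.68) and -0.68 (-0.72 to -0.65), and the intervals of the knockouts overlapped each other. Transcripts as long as the longest Trp63 transcript, 5.37 kb, were low in the knockouts as a class. Among 914 genes within 1.25 times that length and at 20 CPM or more, the median was log2 -0.62 in Lpar6 knockout cells and -0.67 in Cab39l knockout cells, and 33.0% and 49.3% of them lay below Trp63. Over all genes measured, the median was log2 -0.30 and -0.28.

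Krt5 was at 296 CPM (293 to 300) in wild-type cells, 186 CPM (183 to 188) in Lpar6 knockout cells and 321 CPM (318 to 324) in Cab39l knockout cells. The Lpar6 knockout was the lowest library, at log2 -0.67 (-0.70 to -0.65) against the wild type, and the Cab39l knockout differed from the wild type by log2 0.11 (0.09 to 0.14). Among 980 genes of like transcript length, 3.57% were further below the wild type in the Lpar6 knockout than Krt5.

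Krt15 was at 1076 CPM (1068 to 1083) in wild-type cells, 208 CPM (205 to 210) in Lpar6 knockout cells and 1121 CPM (1116 to 1126) in Cab39l knockout cells. The Lpar6 knockout thus held 19.4% of the wild-type level, a difference of log2 -2.37 (-2.39 to -2.35) or 5.16-fold, and the Cab39l knockout differed from the wild type by log2 0.06 (0.05 to 0.07). Set directly against each other, the Lpar6 knockout was 5.38-fold below the Cab39l knockout. Krt19, a neighbour of Krt15 on the chromosome and a keratin of all urothelial layers, did not show this gap. It was at 1840, 1685 and 1884 CPM in the wild type, Lpar6 knockout and Cab39l knockout. The neighbour Krt13 was near the floor, at 1.09, 1.33 and 0.723 CPM, and is not read here.

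With a difference of at least 2-fold taken as a call (CPM plus 1, at least 50 UMIs over both libraries), 1 of the 3 members, Krt15, was called in the Lpar6 knockout against the wild type, where 2.65% of 12892 genes were called (2.46% lower, 0.194% higher). None was called in the Cab39l knockout against the wild type, where 3.06% of 13020 genes were called (2.94% lower, 0.123% higher). Krt15 alone was called between the Lpar6 and Cab39l knockouts, where 0.701% of 13120 genes were called (0.366% lower, 0.335% higher). The wild type serves in both knockout comparisons. Calls against the wild type lay mostly on the lower side, and that split depends on the scaling: 92.7% of calls were lower in Lpar6 knockout cells and 96.0% in Cab39l knockout cells with the total UMIs as the scale, but 38.3% and 48.1% with TMM factors, which moved the median gene up by log2 0.30 and 0.26. With TMM factors, Krt5 was at log2 -0.29 and Trp63 at -0.33 in the Lpar6 knockout, and Krt15 remained called at -1.99.

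To compare cells at the same depth, 10000 UMIs were drawn from each cell without replacement. Trp63 then was a low signal. Its mean per cell was 1.71 UMIs in the wild type, 1.0 in Lpar6 knockout cells and 1.03 in Cab39l knockout cells. Its variance was 1.41, 1.16 and 1.26 times the mean, where 1 is the value of random counting. This ratio falls toward 1 as the mean falls, so it does not compare spread between genes or libraries of unlike mean. A Trp63 UMI was present in 77.1% of wild-type cells, 60.5% of Lpar6 knockout cells and 59.4% of Cab39l knockout cells, close to the 81.9%, 63.3% and 64.2% that a Poisson count with those means gives. Without thinning, the shares were 94.0%, 88.3% and 89.3%.

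Krt5 varied more from cell to cell than random counting. Its mean was 3.24 UMIs in the wild type, 1.99 in Lpar6 knockout cells and 3.46 in Cab39l knockout cells, its medians were 3, 1 and 3, and its variance was 2.67, 2.17 and 2.67 times the mean. A Krt5 UMI was present in 84.6%, 73.1% and 85.7% of cells (94.5%, 89.3% and 95.8% without thinning). Cells with 5 or more Krt5 UMIs made up 27.1% of the wild type, 11.2% of the Lpar6 knockout and 28.9% of the Cab39l knockout.

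Krt15 had by far the widest spread of the 3 genes in each library. Wild-type cells had a mean of 12.4 UMIs, a median of 5 and a 90th percentile of 36, and the Cab39l knockout was alike, with a mean of 13.4, a median of 7 and the same 90th percentile. Lpar6 knockout cells had a mean of 2.70, a median of 0 and a 90th percentile of 8. The variance was 21.2, 21.7 and 18.3 times the mean in the wild type, Lpar6 knockout and Cab39l knockout.

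Both the share of cells with Krt15 and its level in those cells were lower in the Lpar6 knockout. A Krt15 UMI was present in 73.6% of wild-type cells (72.0 to 75.2), 32.4% of Lpar6 knockout cells (31.0 to 33.7) and 78.3% of Cab39l knockout cells (77.2 to 79.4), and without thinning in 85.0%, 45.6% and 90.7%. Cells with a Krt15 UMI held means of 16.9, 8.34 and 17.1 UMIs. Cells with at least 20 Krt15 UMIs made up 25.5%, 3.98% and 28.0%. The highest cell of each library was at 113, 105 and 107 UMIs, so the top of the range was reached in the Lpar6 knockout too, by few cells: the tenth of cells with the most Krt15 held 78.4% of all Krt15 UMIs there, against 40.1% in the wild type and 36.1% in the Cab39l knockout.

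**Figure D1:**
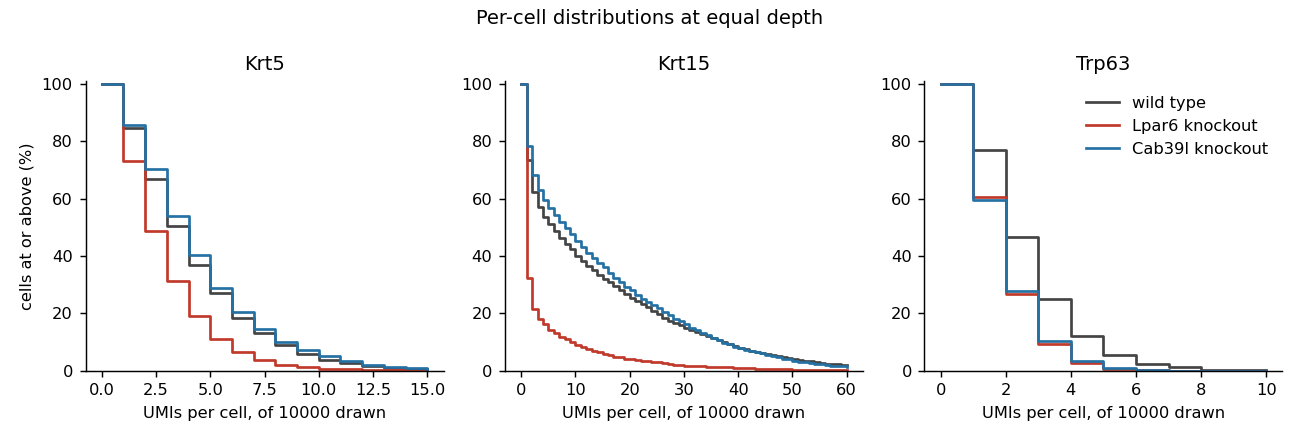
Share of cells (vertical axis, %) with at least the number of UMIs on the horizontal axis, for Krt5, Krt15 and Trp63, after drawing 10000 UMIs per cell; the lines are the wild type (2887 cells), Lpar6 knockout (4670) and Cab39l knockout (5171). The Krt15 line of the Lpar6 knockout falls to 32.4% at 1 UMI, the Krt5 line of that library lies below the other two, and the Trp63 lines of both knockouts lie together below the wild type.

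Free RNA gives some UMIs to cells that do not express a gene, so the shares were set beside those of lymphoid barcodes (5 or more UMIs of B, T or NK cell markers and from 2000 to under 10000 UMIs in all), which should lack all 3 genes. There were 297, 26 and 120 such barcodes in the wild type, Lpar6 knockout and Cab39l knockout, with median depths of 2956, 2533.5 and 3296 UMIs against 23652, 27339.5 and 30904 in urothelial cells, and all were thinned to 2000 UMIs. Krt15 was then present in 29.0% of lymphoid and 55.8% of urothelial cells of the wild type, in 26.7% and 60.3% of the Cab39l knockout, and in 7.69% (0.946 to 25.1) and 18.4% of the Lpar6 knockout, where the lymphoid interval rests on 26 barcodes and reaches past the urothelial share. Krt5 was present in 12.1%, 15.4% and 8.33% of lymphoid and 42.5%, 30.8% and 44.8% of urothelial cells of the wild type, Lpar6 knockout and Cab39l knockout. For Trp63 the lymphoid shares were 2.69%, 3.85% and 2.5% and the urothelial shares 28.3%, 17.5% and 18.7%. The lymphoid intervals of the Lpar6 knockout reached past the urothelial shares for Krt5 (4.36 to 34.9) and Trp63 (0.0973 to 19.6) too. With 26 barcodes, the shares there thus cannot set any of the 3 genes apart from background. Lymphoid barcodes were far shallower than urothelial cells before thinning, and the part of depth in their background was not tested. By level, lymphoid barcodes of the wild type, Lpar6 knockout and Cab39l knockout held 16.7%, 27.1% and 13.0% of the urothelial CPM of Krt15. For Krt5 these were 19.7%, 30.3% and 13.4%, and for Trp63 12.1%, 11.9% and 8.45%. In the Lpar6 knockout the upper bounds of the lymphoid levels, 131 CPM for Krt15 and for Krt5 and 62.7 CPM for Trp63, lay below the urothelial levels of 208, 186 and 94.5 CPM. Lymphoid barcodes of the wild type held Krt15 at 180 CPM (155 to 208), those of the Lpar6 knockout at 56.3 CPM (18.3 to 131) and those of the Cab39l knockout at 145 CPM (113 to 183), with overlapping intervals in the knockouts, and shares of cells with few Krt15 UMIs include such background. At least 10 Krt15 UMIs of 10000, were found in 40.1%, 9.04% and 45.3% of urothelial cells.

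All 3 genes were detected together in 51.5% of wild-type cells, 17.4% of Lpar6 knockout cells and 43.0% of Cab39l knockout cells at 10000 UMIs. The products of the single shares, which would hold if detection of each gene were unrelated to the others, are 48.0%, 14.3% and 39.8%. In the Lpar6 knockout the most frequent pattern was Krt5 with Trp63 and without Krt15, at 27.3% of cells, against 14.2% in the wild type and 8.30% in the Cab39l knockout. In the Cab39l knockout the pattern of Krt5 with Krt15 and without Trp63 was more frequent, at 27.3% against 14.5% and 9.29%. Cells with Krt5 alone made up 4.30% of the wild type, 19.1% of the Lpar6 knockout and 7.04% of the Cab39l knockout. Cells with none of the 3 genes made up 2.08%, 8.74% and 2.84%.

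**Figure D2:**
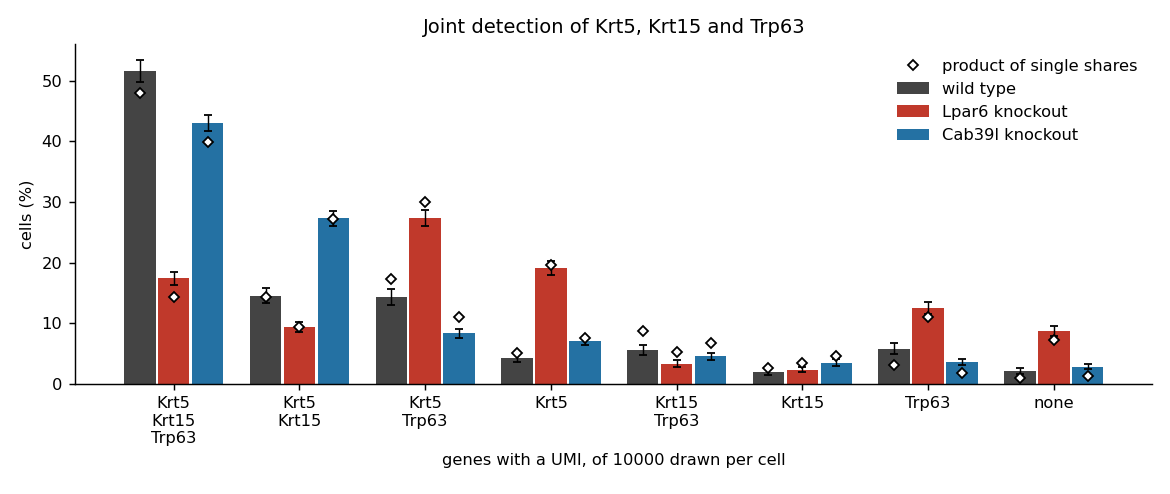
Share of cells (%) with each combination of Krt5, Krt15 and Trp63 detected after drawing 10000 UMIs per cell, by library; bars start at 0, error bars are exact binomial 95% intervals, and diamonds are the products of the single-gene shares. All 3 genes are found together in 51.5%, 17.4% and 43.0% of cells in the wild type, Lpar6 knockout and Cab39l knockout.

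Krt5 and Krt15 went together in the same cells, and Trp63 was only weakly related to either at this depth. Across cells, which share their library, free RNA and fixed total, Spearman's rho between Krt5 and Krt15 was 0.48 in the wild type (2887 cells), 0.28 in the Lpar6 knockout (4670 cells) and 0.45 in the Cab39l knockout (5171 cells). The odds of finding a Krt15 UMI were 3.71, 2.15 and 3.65 times higher in cells with a Krt5 UMI. Between Krt5 and Trp63 rho was 0.06, 0.04 and 0.08, and between Krt15 and Trp63 it was 0.03, 0.05 and 0.11.

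Depth limits what can be read from the low values for Trp63. In cells of at least 40000 UMIs (379, 457 and 939 cells), thinned to 40000, rho between Krt5 and Trp63 was 0.16, 0.23 and 0.20 in the wild type, Lpar6 knockout and Cab39l knockout, against 0.03, 0.08 and 0.09 in the same cells at 10000 UMIs. Between Krt15 and Trp63 it was 0.13, 0.18 and 0.27 at 40000, against 0.07, 0.13 and 0.18 at 10000. The relation of Krt5 to Krt15 was also higher at the greater depth, at 0.54, 0.31 and 0.59, against 0.44, 0.25 and 0.46 in the same cells at 10000. The Lpar6 knockout had the lowest value for Krt5 with Krt15 at both depths.

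Krt15 was higher in cells with more Krt5 in every library, from a lower start in the Lpar6 knockout. Wild-type cells with 0, 1, 2, 3 to 4, 5 to 8 and at least 9 Krt5 UMIs had mean Krt15 counts of 4.0, 6.58, 8.76, 11.9, 21.1 and 33.4. Lpar6 knockout cells of the same Krt5 counts had 1.14, 1.52, 2.42, 3.6, 6.54 and 17.9. The Lpar6 knockout thus held between 23.2% and 31.0% of the wild-type Krt15 level at Krt5 counts up to 8, and 53.7% in the 58 cells with at least 9 Krt5 UMIs. Cab39l knockout cells had 4.77, 8.23, 10.1, 13.6, 19.5 and 30.0, between 89.9% and 125% of the wild type.

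The Krt15 gap was wider than the wild-type relation between the genes gives for the Krt5 counts of the Lpar6 knockout. If each Lpar6 knockout cell had the mean Krt15 of wild-type cells in its range of Krt5 counts, as listed above, the mean would be 9.11 UMIs. Observed were 2.70, 3.38-fold fewer. For the Cab39l knockout the same calculation gives 13.0 UMIs, and 13.4 were observed. A Krt5 count of a few UMIs is itself a noisy measure, and counts within the wider ranges can differ between libraries. Cells matched by range are thus not matched exactly on Krt5 level.

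Among cells with a Krt5 UMI, 78.1% of wild-type cells (76.4 to 79.7), 36.5% of Lpar6 knockout cells (34.9 to 38.1) and 82.1% of Cab39l knockout cells (80.9 to 83.2) also had Krt15. Against the wild type, the difference in this share was -41.6 percentage points for the Lpar6 knockout and 4.0 points for the Cab39l knockout. Krt5-rich cells without Krt15 were frequent in the Lpar6 knockout: of cells with at least 5 Krt5 UMIs, 207 of 523 (39.6%, 35.4 to 43.9) had no Krt15 UMI there, against 69 of 783 (8.81%, 6.92 to 11) in the wild type and 124 of 1494 (8.30%, 6.95 to 9.82) in the Cab39l knockout. The reverse, at least 10 Krt15 UMIs without Krt5, was found in 4.83%, 9.95% and 5.51% of such cells.

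Trp63 varied less than Krt15 along the same axis. From 0 to at least 9 Krt5 UMIs, its mean per cell went from 1.52 to 1.89 in the wild type, from 0.961 to 1.24 in the Lpar6 knockout and from 0.95 to 1.23 in the Cab39l knockout. In the Lpar6 knockout, a Trp63 UMI was present in 58.8% of cells with 0 Krt5 UMIs, 64.9% of cells with 5 to 8 and 77.6% of the 58 with at least 9. From 0 to at least 9 Krt5 UMIs, this share went from 55.9% to 65.9% in the Cab39l knockout and from 73.5% to 75.9% in the wild type. These shares cover cells with and without Krt15, and Trp63 was not examined in the Krt5-rich cells without Krt15 alone.

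**Figure D3:**
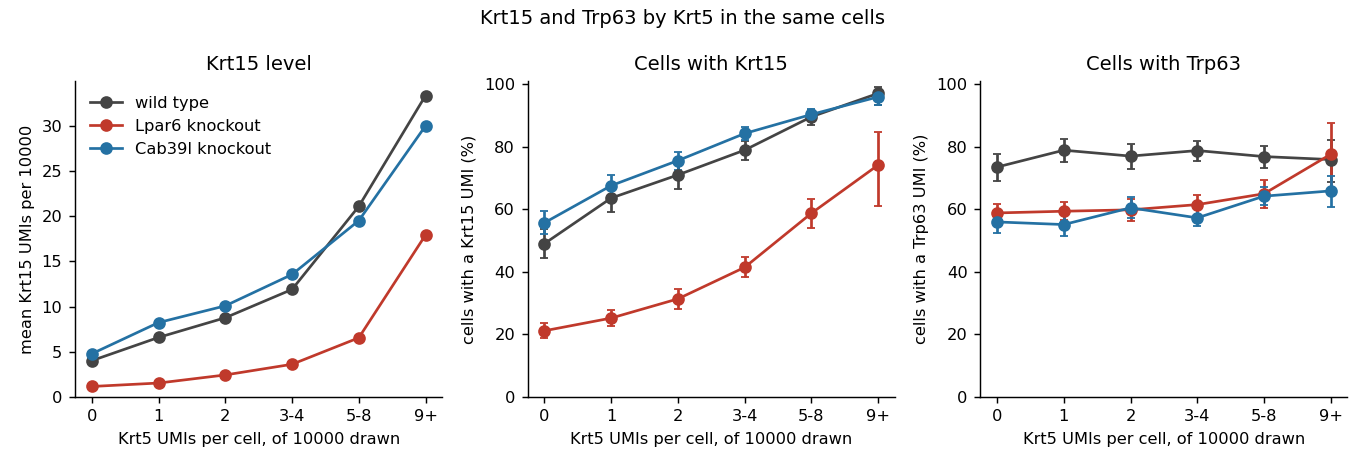
Mean Krt15 UMIs per cell (left), share of cells with a Krt15 UMI (middle, %) and share with a Trp63 UMI (right, %) in cells binned by their Krt5 count, all of 10000 UMIs drawn per cell, by library; error bars on the shares are exact binomial 95% intervals. Krt15 is higher at higher Krt5 in each library, from 4.0 to 33.4 UMIs in the wild type and from 1.14 to 17.9 in the Lpar6 knockout. From the lowest to the highest bin, the Trp63 share goes from 73.5% to 75.9% in the wild type. In the Lpar6 knockout it goes from 58.8% to 77.6%, and in the Cab39l knockout from 55.9% to 65.9%.

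Of all Krt5 and Krt15 UMIs without thinning, Krt15 took 78.4% in the wild type, 52.8% in Lpar6 knockout cells and 77.8% in Cab39l knockout cells. Single cells with at least 20 UMIs summed over both genes were then taken, also without thinning. Their median Krt15 share was 83.3% in 1416 wild-type cells, 78.6% in 657 Lpar6 knockout cells and 81.6% in 3109 Cab39l knockout cells. These cells made up 49.0%, 14.1% and 60.1% of the urothelial cells of their libraries, which differ in depth. Since Krt15 gives most of their UMIs of both genes, they are cells high in Krt15. The filter itself favours a high Krt15 share, so these medians describe those cells only.

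The 3 genes shared an inverse relation to the luminal uroplakins. Spearman's coefficient with the share of UMIs from the 4 uroplakins was -0.54, -0.41 and -0.61 for Krt15 in the wild type, Lpar6 knockout and Cab39l knockout, -0.37, -0.27 and -0.34 for Krt5, and -0.26, -0.12 and -0.16 for Trp63. The cells were selected to have at least 0.2% uroplakin UMIs, so the range at the low end is cut off. All 3 were also lower per 10000 UMIs in deeper cells: rho with the total UMIs of a cell lay between -0.33 and -0.22 for Krt15, between -0.21 and -0.16 for Krt5 and between -0.20 and -0.12 for Trp63.

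Within tiers of depth the order of the libraries for Krt15 was kept. Cells of under 20000 UMIs had 1665 CPM of Krt15 in the wild type, 616 in Lpar6 knockout cells and 2134 in Cab39l knockout cells. Cells of at least 40000 UMIs had 595, 70.5 and 619 CPM. Against the wild type, Krt15 in the Lpar6 knockout was at log2 -1.43, -2.60 and -3.06 in the tiers of under 20000, 20000 to under 40000 and at least 40000 UMIs, so it was smallest in the shallowest cells. For Krt5 the same tiers gave -0.73, -0.61 and -0.87, and for Trp63 -0.79, -0.73 and -0.42.

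The pools held cells of both sexes in unequal numbers. Cells with Xist and no Y-linked RNA of Ddx3y, Eif2s3y, Uty or Kdm5d numbered 1312 in the wild type, 2657 in Lpar6 knockout cells and 1787 in Cab39l knockout cells, and cells with Y-linked RNA and no Xist 1122, 1393 and 2611. Cells with both made up 10.6%, 10.0% and 10.6% of the urothelial cells, and cells with neither 5.09%, 3.28% and 4.33%. Whether cells with both are doublets or hold free RNA was not tested. Krt15 in the Lpar6 knockout was at log2 -2.03 against the wild type in Xist cells and at -2.84 in Y-gene cells. Krt5 was at -0.35 and -1.02, and Trp63 at -0.71 and -0.72. In Y-gene cells Krt5 therefore passed the 2-fold call too. The difference between the sexes was not tested, since each pool gives 1 value per sex.

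**Figure D4:**
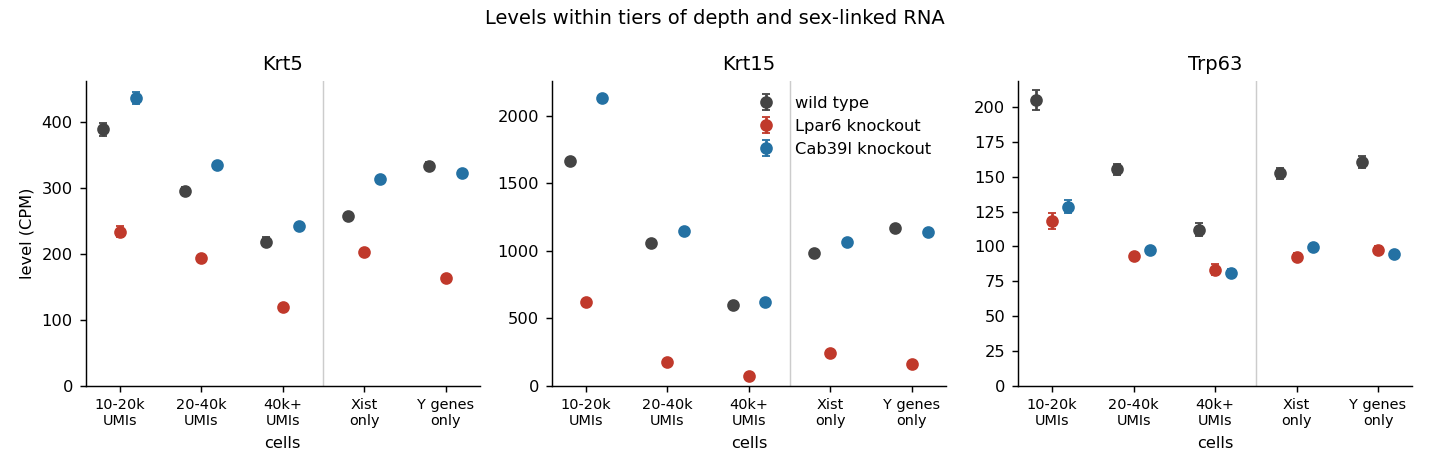
Level (CPM) of Krt5, Krt15 and Trp63 in cells of 3 depth tiers and, right of the grey line, in cells with Xist only or with Y-linked genes only, by library; error bars are exact Poisson 95% intervals. In each of the 5 sets of cells the Lpar6 knockout is lowest for Krt5 and Krt15, and for Trp63 both knockouts are below the wild type.

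The genes most like each member across cells were ranked by the mean of the within-library rho over 6166 genes detected in at least 10% of thinned cells of every library. For Krt5, Krt15 ranked first in each library, followed over the libraries by Igfbp2, a binding protein of insulin-like growth factors (mean rho 0.29), Trf, which encodes transferrin (0.27), the aldehyde dehydrogenase Aldh3a1 (0.25) and the secreted protein gene Wfdc2 (0.24). For Krt15 the order was Igfbp2 (0.43), Aldh3a1 (0.41), Krt5 (0.40), Wfdc2 (0.38) and the carbonyl reductase Cbr2 (0.30). The 99th percentile of rho for Krt15 over all these genes was 0.17, 0.09 and 0.12 in the wild type, Lpar6 knockout and Cab39l knockout. The 5 genes were picked as the highest of these same values, so their place above that percentile follows largely from the choice.

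The lowest values belonged to genes of the luminal side and a few others. They were Psca (-0.33), Fam25c (-0.33) and the uroplakin Upk1b (-0.28) for Krt5, and the uroplakin Upk3a (-0.46), the G-protein signalling regulator Rgs5 (-0.43) and Fam25c (-0.43) for Krt15. In the Lpar6 knockout against the wild type, the genes named at both ends differed less than Krt15, which was at log2 -2.37. Of those with the highest rho, Igfbp2 was at -0.42, Trf at -0.73, Aldh3a1 at -0.76, Cbr2 at -0.42 and Wfdc2 at 0.37. Of those with the lowest, Fam25c was at 0.92, Psca at 0.71, Upk3a at 0.37, Upk1b at 0.31 and Rgs5 at -0.62. In the Cab39l knockout against the wild type, these last genes were at 0.10, 0.45, 0.19, 0.52 and -0.61, and Krt15 was at 0.06.

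The values for Trp63 were weak. Its highest mean rho were with the nuclear RNA Malat1 (0.18), Atrn, which encodes attractin (0.13), the UDP-glucose dehydrogenase Ugdh (0.11), the receptor gene Notch1 (0.10) and the actin-binding protein gene Lima1 (0.10), and its lowest with Psca (-0.17), Upk3a (-0.17) and S100a6 (-0.16). These means hide a difference between libraries: of the 6166 genes, Krt15 and Krt5 ranked 2669 and 1479 with Trp63 in the wild type, 82 and 299 in the Lpar6 knockout, and 3 and 14 in the Cab39l knockout, where their rho of 0.11 and 0.08 were above the 99th percentile of 0.06. In the wild type, where the mitochondrial share was highest, rho with the mitochondrial share was 0.24 for Trp63, -0.25 for Krt5 and -0.30 for Krt15. In the Lpar6 and Cab39l knockouts these values were 0.07 and 0.06 for Trp63. Malat1 itself was at 21194 CPM in the wild type and at 11044 and 8900 CPM in the Lpar6 and Cab39l knockouts; its part in the Trp63 result, and that of the mitochondrial share, was not tested.

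**Figure D5:**
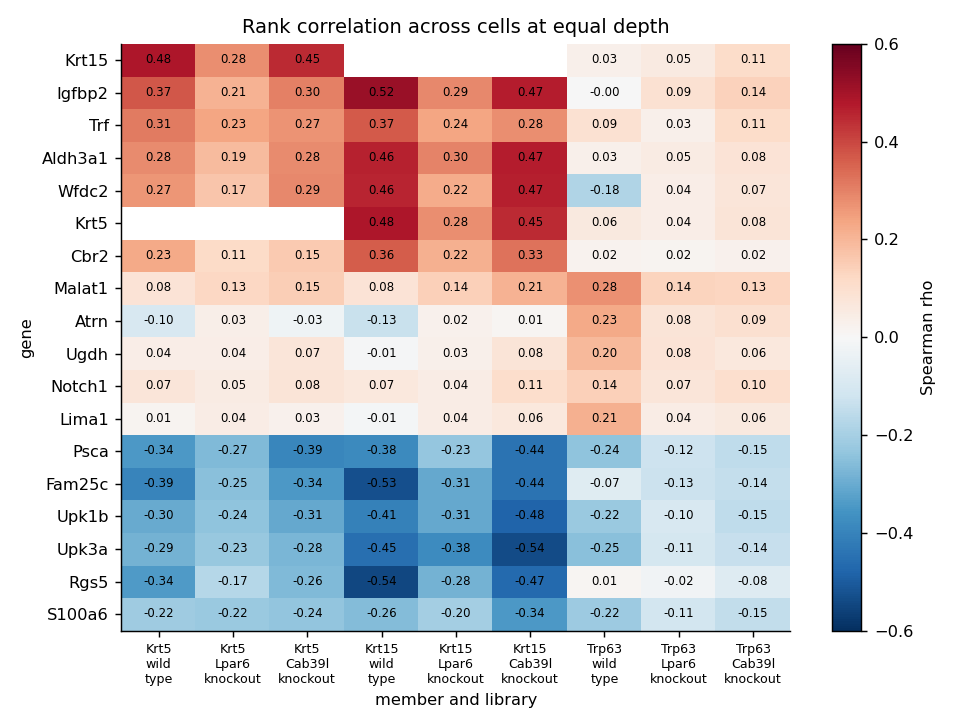
Spearman's rho across cells at 10000 UMIs between each member and the genes with its 5 highest and 3 lowest mean values, in each library; red is positive, blue negative, and each square prints its value. Igfbp2, Trf, Aldh3a1 and Wfdc2 are positive with both Krt5 and Krt15 in each library, and the Trp63 columns are pale.

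Most other genes of the basal layer that were measured were lower in the knockouts, as were long transcripts in general. Of 15 measured (19 listed), 5 were at least 2-fold lower in the Lpar6 knockout, the integrin and receptor genes Itga3, Itgb4 and Cd44, the laminin chain Lama3 and the linker protein Dst, and Dst alone in the Cab39l knockout; none was 2-fold higher. Over all genes 2.46% and 2.94% were lower by that much. The list's median was log2 -0.79 and -0.76, beside -0.30 and -0.28 over all genes. The list's transcripts were long, with a median of 4.87 kb, and 1042 genes within 1.25 times that length and at 20 CPM or more had medians of -0.55 and -0.60; the part of length in the list's result was not tested. Of its 4 most abundant genes, Aqp3, a water and glycerol channel, was at 613, 550 and 622 CPM in the wild type, Lpar6 knockout and Cab39l knockout, the signal Shh at 111, 85.6 and 96.0, Dst at 145, 56.2 and 54.0, and the integrin Itgb1 at 74.5, 51.1 and 43.6. Aqp3, like Krt5 and Krt15, was thus near the wild-type level in the Cab39l knockout. With TMM factors 0 of 15 were called in Lpar6 knockout cells and 1 in Cab39l knockout cells, again Dst, beside 0.535% and 0.392% of all genes lower.

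Among genes known as p63 targets, 3 of 11 measured (12 listed) were at least 2-fold lower in the Lpar6 knockout, the Notch ligand Jag2, Itga3 and Itgb4, and Jag2 alone in the Cab39l knockout, where 2.46% and 2.94% of all genes were lower by that much. No member of the list was 2-fold higher. Itga3 and Itgb4 are also counted in the basal-layer list above. The p63 targets had a median transcript length of 4.43 kb, and 1160 genes of like length had medians of log2 -0.50 and -0.53. The part of length was not tested. Abundant genes of the list differed less: Sfn, a 14-3-3 protein, was at log2 -0.08 in Lpar6 knockout cells and -0.10 in Cab39l knockout cells, the desmosome-associated Perp at -0.36 and -0.20, and the cell-cycle inhibitor Cdkn1a at -0.24 and -0.53. With TMM factors, Jag2 was the 1 gene called in the Lpar6 knockout and 0 were called in the Cab39l knockout. Over all genes, 0.535% and 0.392% were then lower by that much.

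With the total UMIs as the scale, the other keratins as a group were near the wild-type level in both knockouts. Of 9 measured in the Lpar6 knockout comparison (15 listed), 2 were at least 2-fold lower, Krt4 and Krt23, and none of 10 in the Cab39l knockout. Over all genes 2.46% and 2.94% were lower by that much. The list's medians were log2 -0.13 and 0.02, beside -0.30 and -0.28 over all genes. The list's transcripts were short, with a median of 1.93 and 1.94 kb in the 2 comparisons. Genes of like length (901 and 912) had medians of -0.02 and 0.03, and the part of length was not tested. The simple-epithelial keratin Krt18 was at log2 0.17 and 0.18, Krt7 at -0.19 and 0.07, Krt19 at -0.13 and 0.03, and Krt8 at -0.09 and 0.01. With TMM factors the medians were above the wild type, at 0.26 and 0.39, and 0 were called, beside 0.535% and 0.392% of all genes lower. Krt4, chosen here after its values were seen, was at 62.7, 25.2 and 78.7 CPM in the wild type, Lpar6 knockout and Cab39l knockout. Across cells Krt4 went with Krt15 (rho 0.22, 0.17 and 0.30) but not with Krt5 (-0.03, -0.08 and -0.05).

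Of the desmosome genes, to whose proteins keratin filaments attach, 1 of 9 measured (11 listed) was called in the Lpar6 knockout, the desmoplakin gene Dsp, and 2 in the Cab39l knockout, Dsp and the periplakin gene Ppl, all lower, beside 2.46% and 2.94% of all genes. Their medians were log2 -0.64 and -0.57, and 1091 genes of like length (the list's median was 4.67 kb) had medians of -0.53 and -0.58; Jup was at -0.55 and -0.35 and Dsg2 at -0.77 and -0.86. Of 10 luminal transcription factors, none was called in the Lpar6 knockout and 1, Ehf (log2 -1.02), in the Cab39l knockout, with medians of -0.68 and -0.55; Gata3 was at -0.52 and -0.56, Klf5 at -0.73 and -0.55, and Foxa1 at -0.68 and -0.54. With TMM factors 0 genes of these last lists were called in either knockout. The basal-layer, desmosome and luminal factor lists had medians below that of all genes in both knockouts, under either scaling; genes of the luminal factors' median length, 3.2 kb, had medians of -0.31 and -0.27.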

How the data were processed

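The authors deposited filtered 10x count matrices (UMI counts per gene and barcode, not normalised). They were made with Cell Ranger 3.0.2 on mm10, per the submitters' processing notes. No doublet removal is stated. Scrublet (scanpy 1.11.5) marked 22 of 16821 barcodes (0.131%) by its own threshold, too few to be used, so removal of the top 6% by score served as an alternative. Counts were summed over the urothelial cells of each library and expressed per 1000000 UMIs (CPM); folds used CPM plus 1. Cells were thinned to 10000 UMIs (2000 beside lymphoid barcodes) with a fixed seed. TMM factors came from edgeR 4.0.16 (R 4.3.3); other steps used Python 3.11.15, numpy 2.4.6, scipy 1.17.1 and pandas 2.3.3. Gene models were GENCODE vM21, which held 30934 of the 31053 gene identifiers (99.6%). The fold calls were tested on Poisson counts simulated from the wild-type means with some genes changed. That simulation held no difference in pool or library quality, so it cannot show how the calls behave under such differences. Named genes were the members, both knocked-out genes, for each member the genes with the 5 highest and 3 lowest mean rho, and the 4 most abundant genes of each list, of which 1 gene and its list's median are not reported here; other genes are named where few were called, after their values were seen. The members and lists were chosen with earlier results of these data known. Alternatives varied the cell filters, doublet score, scaling, pseudocount, weighting, thinning and seed; cells with markers of other cell types, cells by sex-linked RNA and deep cells were added after seeing the data.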

Additional observations from a re-analysis of the deposited data

Results flagged for a closer look

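Krt5 in the Cab39l knockout against the wild type was at log2 0.29 in Xist cells and at -0.043 in Y-gene cells, 0.33 apart and of opposite sign. Krt15 in the same comparison was at 0.12 and -0.032, 0.15 apart. These were singled out because the sexes lay on different sides of 0; each pool gives 1 value per sex, so the difference was not tested.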

How the results depend on the processing

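Against the wild type, Krt15 in the Lpar6 knockout stayed past 2-fold under all 12 alternatives, from log2 -2.84 (Y-gene cells alone) to -1.99 (TMM factors). Krt5 passed 2-fold in Y-gene cells alone, and Trp63 under none. In the order Krt5, Krt15, Trp63, the Lpar6 knockout gave -0.59, -2.56 and -0.63 with at least 20000 UMIs, -0.78, -2.59 and -0.53 with at most 10% mitochondrial UMIs, -0.29, -1.99 and -0.33 with TMM factors, and -0.55, -2.24 and -0.59 with mitochondrial and ribosomal protein genes left out of the total. With at least 0.5% uroplakin UMIs Krt5 was at -0.55 and Trp63 at -0.62. In Xist cells alone Krt5 was at -0.35 and Krt15 at -2.03, and in Y-gene cells at -1.02 and -2.84. Krt15 was at -2.34 with at least 5000 UMIs and -2.28 without the top 6% by doublet score; with cells weighted equally Krt15 was at -2.20 and Trp63 at -0.78.

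The Cab39l knockout, in the same order, gave 0.16, 0.076 and -0.62 with at least 20000 UMIs, 0.00072, -0.16 and -0.50 with at most 10% mitochondrial UMIs, 0.23, 0.26 and -0.61 with at least 0.5% uroplakin UMIs, 0.29, 0.12 and -0.61 in Xist cells, -0.043, -0.032 and -0.76 in Y-gene cells, 0.48, 0.43 and -0.31 with TMM factors, and 0.24, 0.19 and -0.55 without mitochondrial and ribosomal protein genes. Krt15 was at 0.037 with at least 5000 UMIs, 0.088 without the top 6% by doublet score and 0.10 with cells weighted equally. The sign of Krt5 thus turned in Y-gene cells, and that of Krt15 there and under the stricter mitochondrial limit; the cause was not tested.

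The share of Krt5-positive cells with Krt15, Lpar6 knockout minus wild type, was -44.5 points with at most 10% mitochondrial UMIs and -44.8 in Y-gene cells. Cab39l knockout minus wild type, it was 0.615 points with at most 10% mitochondrial UMIs and 6.74 with at least 0.5% uroplakin UMIs. Leaving out cells with at least 0.5% of UMIs from markers of other cell types (29, 9 and 25 cells) moved no member's fold beyond its counting interval. A minimum of 5000 UMIs could not be applied to values at 10000 UMIs. No paired analysis was possible because each genotype has 1 library. Depth limits Trp63, at means of 1.71, 1.0 and 1.03 UMIs per 10000 in the wild type, Lpar6 knockout and Cab39l knockout.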

Other observations

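The relation of the 3 genes to the mitochondrial share differed between the libraries. In cells with under 5%, 5 to 10% and 10 to 20% mitochondrial UMIs, Krt15 was at 2581, 1150 and 658 CPM in the wild type, 277, 204 and 185 CPM in the Lpar6 knockout and 1266, 1106 and 1080 CPM in the Cab39l knockout. The first of these tiers holds 155 wild-type, 277 Lpar6 knockout and 522 Cab39l knockout cells. The Krt15 difference of the Cab39l knockout from the wild type therefore went from log2 -1.03 through -0.06 to 0.71 across the tiers, and that of the Lpar6 knockout from -3.22 through -2.49 to -1.82. Trp63 in the wild type ran the other way, at 115, 136 and 203 CPM. The near equality of Krt15 in wild-type and Cab39l knockout cells is thus an average over tiers that differ in both directions, whereas the Lpar6 knockout was lower by over 2-fold in each.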
